A study of Mus musculus with 12 samples.

Results

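Frontal cortex of male C57BL/6 mice labelled as conditional Hdac2 knockouts and given clozapine was compared with that of wild-type mice given vehicle, which sets both factors of the study against neither. The comparison used 6 of the 12 RNA sequencing libraries of the study, chosen by their labels alone: knockout clozapine 3, 4 and 5 against wild-type vehicle 1, 3 and 4. The knockout clozapine mice carry loxP sites on both Hdac2 alleles and 1 copy of a Cre transgene driven by the CamKIIa promoter, and they were given chronic clozapine, labelled as 10 mg/kg. That promoter is used mainly by excitatory neurons of the forebrain, so other cells of the tissue keep their Hdac2 gene by design. The wild-type vehicle mice are labelled wild type and vehicle, and whether they carry loxP sites or Cre, the age of the animals and the length of treatment are not given in the sources used here. The other 6 libraries, knockout vehicle 2, 4 and 5 and wild-type clozapine 2, 3 and 5, entered the same fit. They are used below to look at the called genes where the labelled genotypes differ but the drug is in the other order. Beyond a group and a number nothing is said of the animals, and p-values therefore reflect only how far these libraries spread, which may be technical.

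Clozapine, an antipsychotic, acts on receptors for serotonin, dopamine, noradrenaline, histamine and acetylcholine. Hdac2 encodes a histone deacetylase, which removes acetyl groups from histone tails as a subunit of co-repressor complexes such as Sin3, NuRD and CoREST. In cortical neurons Hdac2 is known for limiting the expression of synaptic and plasticity genes.

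The targeted gene, Hdac2, had no lower level in knockout clozapine. This gene (identifier ENSMUSG00000019777.16, on chromosome 10 of GRCm38, 36974544 to 37001889) had 73.9, 70.5 and 71.2 CPM (counts scaled to library size) in knockout clozapine, against 75.7, 63.4 and 70.0 CPM in wild-type vehicle. These groups overlapped, and the log2 change was 0.04 (SE 0.06, edgeR adjusted p = 0.750), which turned to -0.02 without wild-type vehicle 3 (edgeR adjusted p = 0.921). Reads were counted over the whole gene, where loss of a few exons may not show, so the genotype is given as labelled. Of 45 tested genes within 5 Mb of Hdac2, 1 was called, Rsph4a (log2 change 1.06, edgeR adjusted p = 0.0216, but 0.057 to 0.11 without knockout clozapine 3 or 5 or wild-type vehicle 1 or 3). Total counts were 23408372 to 28069638 per library, and the chi-square per gene between replicates was 4.26 to 9.97, where sampling noise alone gives about 1. The first principal component over the 12 libraries held 20.3% of the variance and placed knockout clozapine at 8.49 to 15.22 and wild-type vehicle at -19.83 to -10.14. Knockout vehicle lay at 15.11 to 18.05 and wild-type clozapine at -14.04 to -8.5, so this component parted the labelled genotypes. Excitatory neuron markers summed to 9999.8 to 10349 CPM in knockout clozapine and 9306 to 10225 CPM in wild-type vehicle. Thalamic markers summed to 111.8 to 115.5 CPM in knockout clozapine and 106.2 to 131.5 CPM in wild-type vehicle. That list includes Rora, also a member of the clock list below, so its sum is no measure of thalamic tissue.

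In knockout clozapine cortex 323 genes rose and 337 fell relative to wild-type vehicle, out of 17286 tested. A gene is called higher or lower here when its p-value from edgeR's quasi-likelihood test, adjusted over all tested genes by the Benjamini-Hochberg (BH) method, is under 0.05. The called genes are 3.82% of those tested, 1.87% higher and 1.95% lower. These shares belong beside every count of called list members below. Most changes were small: the median log2 change was 0.42 among genes called higher and -0.37 among those called lower, and 43 and 16 of them changed by more than 1 on the log2 scale. All 660 called genes had no overlap between the 2 groups of 3 libraries, as did 4317 (25.0%) of the tested genes. A lack of overlap given below for a called gene therefore adds nothing to its call. The number of calls depended on single libraries. Leaving out knockout clozapine 3, 4 or 5 gave 150, 354 and 245 calls, and leaving out wild-type vehicle 1, 3 or 4 gave 330, 128 and 597. Each of these tests compares fewer libraries, which by itself lowers the power to call genes. Only 97 genes, 46 higher and 51 lower, were called in all 12 tests that each left out 1 library, and genes described below as called throughout belong to these.

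**Figure D1:**
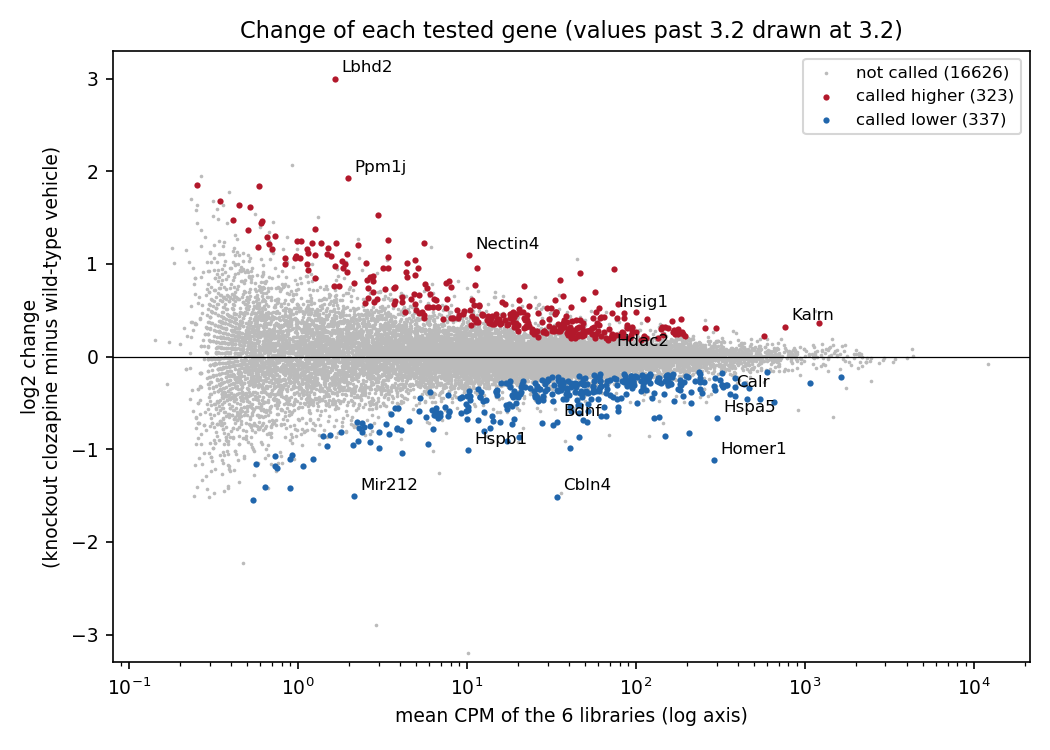
Each point is a tested gene, with its mean CPM over the 6 libraries on a log x axis and its log2 change, knockout clozapine minus wild-type vehicle, on the y axis. Red points are the 323 genes called higher, blue points the 337 called lower, and Hdac2 lies near 0.

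Chaperone genes of the endoplasmic reticulum (ER) fell in knockout clozapine cortex. These proteins fold secreted and membrane proteins, and the unfolded protein response raises their genes when unfolded protein accumulates. Of 25 tested genes of the ER chaperone and unfolded protein response list, 13 fell (9 without wild-type vehicle 3) and 0 rose, against 1.95% and 1.87% of all tested genes, and the list's median log2 change was -0.24, against 0.00 over all genes. Together the 25 genes summed to 2448 to 2513 CPM in knockout clozapine, against 2935 to 3097 CPM in wild-type vehicle, with no overlap. In bulk tissue, fewer cells of a type and less RNA per cell cannot be told apart, here or below.

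Hspa5 (ENSMUSG00000026864.13, chromosome 2, 34771970 to 34777547), which encodes the main Hsp70 chaperone of the ER lumen, was at 233, 244 and 226 CPM in knockout clozapine and at 394, 374 and 345 CPM in wild-type vehicle. Every knockout clozapine library lay far below every wild-type vehicle library, and the log2 change was -0.66 (SE 0.05, edgeR adjusted p = 5.07e-06, n = 3 against 3). Calr (ENSMUSG00000003814.8, chromosome 8, 84841850 to 84846934), a calcium-binding chaperone of glycoproteins, was at 316, 307 and 309 CPM in knockout clozapine, against 400.2, 421 and 409 CPM in wild-type vehicle (log2 change -0.40, SE 0.05, edgeR adjusted p = 0.000255). Sdf2l1, a low-abundance partner of Hspa5, was at 10.6, 11.4 and 8.27 CPM in knockout clozapine, against 18.5, 17.3 and 16.1 CPM in wild-type vehicle. It had the largest change of the list, -0.78 (SE 0.11, edgeR adjusted p = 0.0011), and its groups did not overlap.

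Of the protein disulfide isomerase genes in the list, Pdia6, Pdia4 and Pdia3 fell, while P4hb changed by -0.05 (edgeR adjusted p = 0.686). Pdia6 was at 112, 101 and 102 CPM in knockout clozapine and at 144, 150.5 and 134 CPM in wild-type vehicle (log2 change -0.45, edgeR adjusted p = 0.000481). Pdia4 and Pdia3 changed by -0.46 and -0.27 (edgeR adjusted p = 0.00753 and 0.00366). The co-chaperone Dnajb11, the nucleotide exchange factor Hyou1 and Creld2, a secreted ER stress protein, changed by -0.33, -0.39 and -0.57. These 6 genes and Hspa5, Calr and Sdf2l1 are the 9 members called throughout. The 4 other called members were less stable: Manf, a secreted survival factor of the ER (-0.40, edgeR adjusted p = 0.0088), Xbp1, a transcription factor of the unfolded protein response (-0.32, 0.0109), the Hsp90 chaperone Hsp90b1 (-0.23, 0.030) and the ubiquitin ligase Syvn1 (-0.22, 0.0477). Without wild-type vehicle 3 the calls of Manf, Xbp1, Hsp90b1 and Syvn1 ended (edgeR adjusted p = 0.056 to 0.16). That of Manf also ended without knockout clozapine 3 (0.052) and that of Xbp1 without knockout clozapine 5 (0.06). Those of Hsp90b1 and Syvn1 also ended without any single knockout clozapine library or wild-type vehicle 1, and that of Syvn1 without wild-type vehicle 4, knockout vehicle 2 or wild-type clozapine 3 (edgeR adjusted p = 0.051 to 0.19). Atf4, which encodes a transcription factor of the integrated stress response, was at 118, 123 and 120.0 CPM in knockout clozapine and at 128, 123 and 127 CPM in wild-type vehicle (log2 change -0.06, edgeR adjusted p = 0.872).

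Promoters of several of these genes hold the ER stress response element, a sequence known to be bound by Atf6 together with NF-Y, and 4 are shown to let it be seen in place. The element was searched as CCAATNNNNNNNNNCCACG on both strands, from 250 bases before to 50 bases after the gene start, in RefSeq sequences of GRCm38.p6. It is in capitals, reverse-complemented in Calr and at the second site of Hsp90b1.
Hspa5 (chr2:34771840-34772139, plus strand): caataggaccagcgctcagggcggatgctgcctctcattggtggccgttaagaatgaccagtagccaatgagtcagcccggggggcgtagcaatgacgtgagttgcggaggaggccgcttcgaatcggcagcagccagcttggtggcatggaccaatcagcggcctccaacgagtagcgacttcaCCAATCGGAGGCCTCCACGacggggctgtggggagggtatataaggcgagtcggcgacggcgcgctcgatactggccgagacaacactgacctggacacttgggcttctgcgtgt
Calr (chr8:84846882-84847181, minus strand): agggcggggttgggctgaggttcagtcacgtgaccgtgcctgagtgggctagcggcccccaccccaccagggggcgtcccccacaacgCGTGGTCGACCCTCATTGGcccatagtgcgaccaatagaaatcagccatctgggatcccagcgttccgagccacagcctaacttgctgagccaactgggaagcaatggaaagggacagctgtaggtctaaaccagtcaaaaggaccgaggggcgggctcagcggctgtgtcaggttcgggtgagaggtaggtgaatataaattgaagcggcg
Pdia6 (chr12:17266339-17266638, plus strand): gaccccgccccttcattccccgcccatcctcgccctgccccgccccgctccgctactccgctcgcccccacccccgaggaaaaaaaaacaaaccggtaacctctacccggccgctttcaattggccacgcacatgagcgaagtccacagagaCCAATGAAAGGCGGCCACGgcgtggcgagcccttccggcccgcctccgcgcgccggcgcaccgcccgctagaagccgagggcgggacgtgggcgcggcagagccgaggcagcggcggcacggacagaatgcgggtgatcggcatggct
Hsp90b1 (chr10:86705395-86705694, minus strand): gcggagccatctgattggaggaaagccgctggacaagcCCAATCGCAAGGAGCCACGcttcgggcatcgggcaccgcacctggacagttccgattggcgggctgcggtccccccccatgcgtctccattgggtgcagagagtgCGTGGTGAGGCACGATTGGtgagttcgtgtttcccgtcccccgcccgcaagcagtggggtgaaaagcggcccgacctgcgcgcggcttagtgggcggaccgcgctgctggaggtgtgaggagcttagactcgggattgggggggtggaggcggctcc
The element was present in 21 of 12150 tested genes with a promoter entry (0.173%), and in 8 of the 22 such members of the ER list (36.4%), which are Calr, Canx, Creld2, Dnajc3, Hsp90b1, Hspa5, Pdia6 and Syvn1. Among all genes with a promoter entry, it was present in 0 of 252 called higher and 6 of 256 called lower (2.34%). Those 6 are called members of the ER list. That list gathers unfolded protein response genes, so its share of the element may reflect how members were chosen. Other motifs were searched too. CACGTG was in 13.1% of genes called higher and 8.2% called lower, against 11.1% of all. TGACGTCA was in 1.19% and 3.52%, against 3.39%, and TTATGTAA in 0.794% and 0.781%, against 0.79%. AGGTCA was in 40 of 252 and 32 of 256, against 1827 of 12150.

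**Figure D2:**
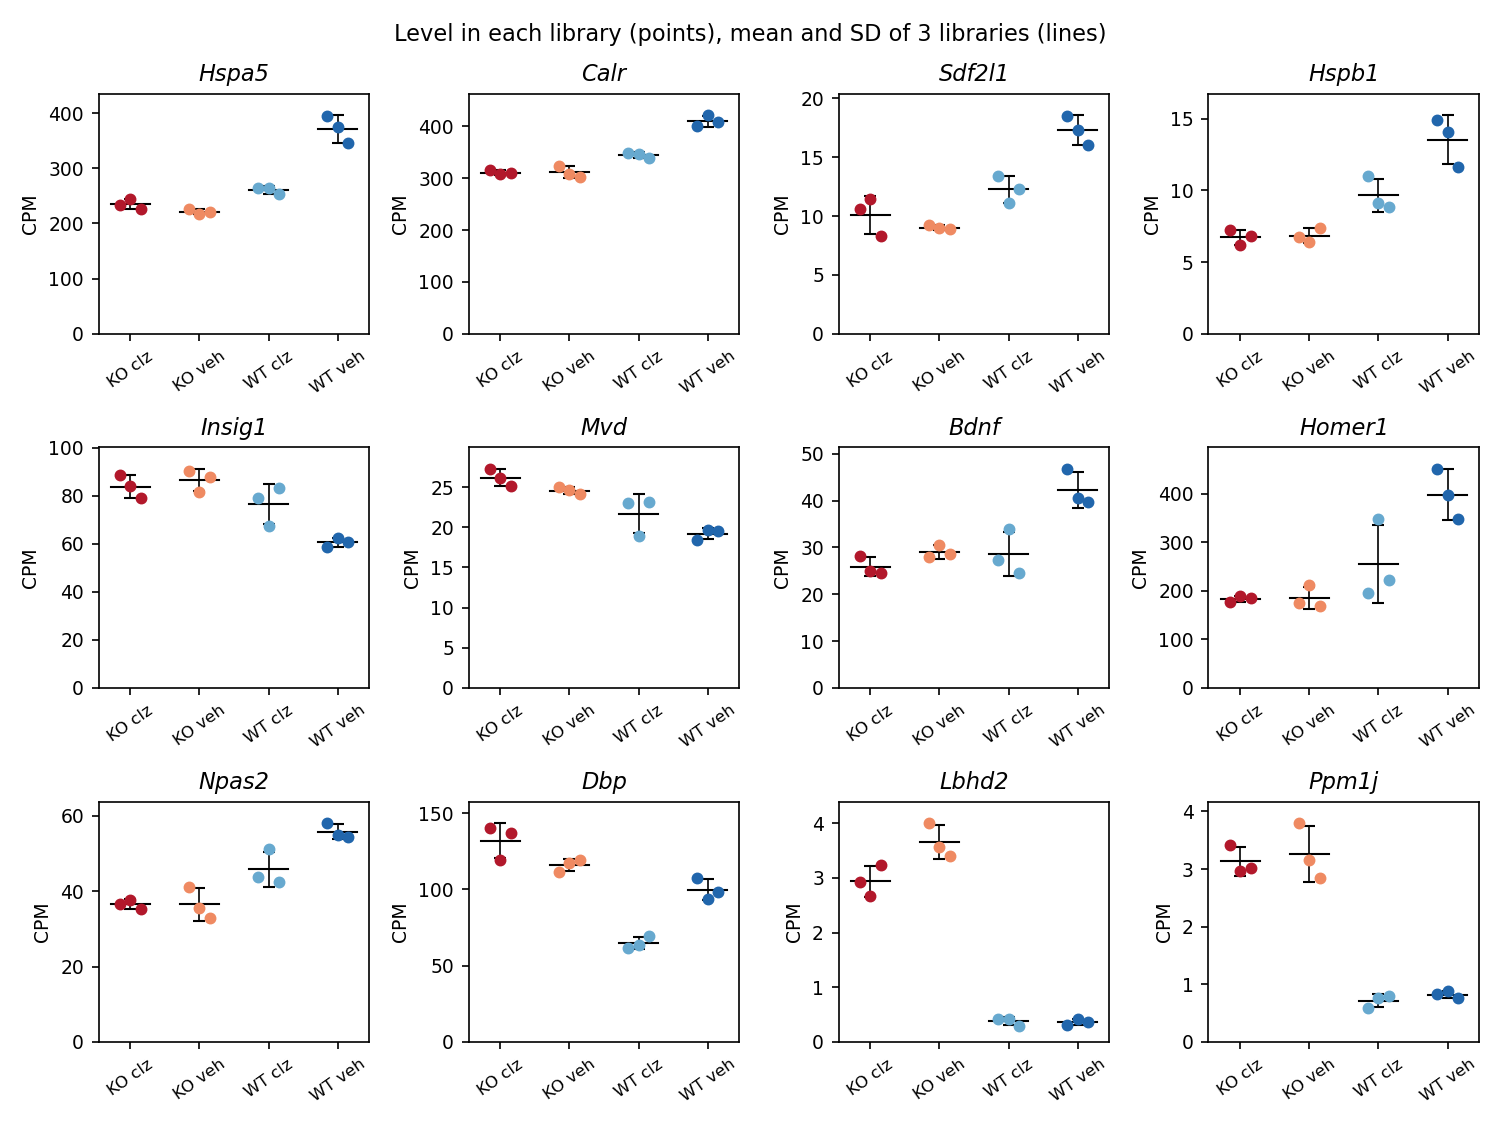
CPM of 12 genes in each of the 12 libraries (points), with the mean and SD of 3 libraries (lines), for knockout clozapine (KO clz), knockout vehicle (KO veh), wild-type clozapine (WT clz) and wild-type vehicle (WT veh), with y axes from 0. In each panel the knockout clozapine points do not overlap the wild-type vehicle points, which holds for all 660 called genes. Hspa5 lies at 226 to 244 CPM in knockout clozapine, against 345 to 394 CPM in wild-type vehicle.

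Cytosolic heat shock genes, whose products fold proteins outside the ER, fell in part. Of 17 tested, 5 fell and 0 rose, against 1.95% and 1.87% of all tested genes, with a median log2 change of -0.11. The small heat shock gene Hspb1 was at 7.21, 6.18 and 6.78 CPM in knockout clozapine and at 14.9, 14.1 and 11.6 CPM in wild-type vehicle. Its log2 change was -1.01 (SE 0.12, edgeR adjusted p = 0.000271). Hsph1, a nucleotide exchange factor for Hsp70, was at 299.9, 292 and 274 CPM in knockout clozapine, against 353, 364 and 355 CPM in wild-type vehicle (log2 change -0.31, edgeR adjusted p = 0.00558). Both were called throughout. Hsf1, the transcription factor that drives heat shock genes (-0.37, edgeR adjusted p = 0.0158), lost its call without knockout clozapine 3 (0.083) or wild-type vehicle 3 (0.092). The Hsp40 gene Dnaja1 (-0.18, 0.0347) and the constitutive Hsp70 gene Hspa8 (-0.22, 0.0429) lost theirs without any single knockout clozapine library, wild-type vehicle 3 or wild-type vehicle 4 (edgeR adjusted p = 0.066 to 0.16). Dnaja1 also lost it without wild-type vehicle 1 (0.11), and Hspa8 without knockout vehicle 4 (0.051). Without wild-type vehicle 3, 2 members of this list were called.

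Genes induced by neuronal activity were lower on balance, with wide spread. Of 24 tested members 5 fell (Bdnf, Vgf, Homer1, Fosb and Fosl2) and 1 rose (Jun), against 1.95% and 1.87% of all tested genes. The median log2 change was -0.46. Bdnf (ENSMUSG00000048482.14, chromosome 2, 109674700 to 109727007), a neurotrophin that supports synapses, was at 28.2, 24.9 and 24.6 CPM in knockout clozapine and at 46.7, 40.6 and 39.7 CPM in wild-type vehicle (log2 change -0.71, SE 0.10, edgeR adjusted p = 0.00205). Vgf, the precursor of secreted neuropeptides, was at 415, 401 and 330 CPM in knockout clozapine, against 505, 522 and 544 CPM in wild-type vehicle (log2 change -0.45, edgeR adjusted p = 0.00803). Bdnf and Vgf were called throughout, and neither overlapped between the groups. Homer1, a postsynaptic scaffold gene with an activity-induced short form, was at 177, 189 and 186 CPM in knockout clozapine, against 450.3, 398 and 347 CPM in wild-type vehicle (log2 change -1.12, SE 0.20, edgeR adjusted p = 0.0228). The AP-1 subunits Fosb and Fosl2 changed by -0.92 and -0.99 (edgeR adjusted p = 0.0263 and 0.0339), while the AP-1 subunit Jun was at 82.6, 62.1 and 66.9 CPM in knockout clozapine and at 35.8, 42.4 and 52.5 CPM in wild-type vehicle (log2 change 0.69, edgeR adjusted p = 0.0279). Calls of Homer1, Fosb and Fosl2 ended without any single knockout clozapine library, wild-type vehicle 1 or wild-type vehicle 3 (edgeR adjusted p = 0.062 to 0.12), and that of Fosl2 without knockout vehicle 2 (0.05). That of Jun ended without knockout clozapine 3 or 5, or wild-type vehicle 1 or 3 (0.062 to 0.12). The fit of the 2 groups alone ended the calls of Fosl2 and Jun (0.053 and 0.097), and a fit with no low-count filter those of Fosb, Fosl2 and Jun (0.055 to 0.069).

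Other immediate early genes overlapped or did not pass. Arc, which regulates AMPA receptor uptake, was at 336, 222 and 186 CPM in knockout clozapine and at 247, 284 and 348 CPM in wild-type vehicle. Egr1, a zinc finger transcription factor, was at 261, 214 and 172 CPM in knockout clozapine, against 302, 294 and 313 CPM in wild-type vehicle (log2 change -0.49, edgeR adjusted p = 0.102). Knockout clozapine 3 was the highest of its group for Arc, Egr1, Fos and Npas4.

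The cortical neuropeptide list had 2 of 16 members called, Vgf and Scg2, both lower. Scg2, the granin precursor of secretoneurin, was at 179.5, 178 and 173 CPM in knockout clozapine, against 251, 265 and 233 CPM in wild-type vehicle (log2 change -0.50, SE 0.07, edgeR adjusted p = 0.00107), and was called throughout. Its 3 knockout clozapine values lay within a narrow range, well below the lowest wild-type vehicle value.

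A stretch of chromosome 11 held 4 called genes among 6 tested, all lower: 1700016P03Rik, Mir212, Mir132 and Rtn4rl1. Mir212 and Mir132 are neighbouring microRNA genes that activity and the transcription factor CREB are known to induce in neurons. The mature 3' arms are shown because they share a seed (bases 2 to 8, in capitals), which sets the sites a microRNA recognises. Sequences are RefSeq's.
miR-212-3p: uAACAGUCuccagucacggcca
miR-132-3p: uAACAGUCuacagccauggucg
The libraries are mRNA libraries, so the values count reads of the longer transcript over each hairpin and not mature microRNA. Mir212 was at 1.40, 1.01 and 0.95 CPM in knockout clozapine and at 3.70, 2.77 and 3.13 CPM in wild-type vehicle (log2 change -1.50, SE 0.20, edgeR adjusted p = 0.000923). The non-coding gene 1700016P03Rik (chromosome 11, 75172560 to 75177633), which contains both hairpins, was at 3.09, 2.79 and 2.23 CPM in knockout clozapine, against 5.92, 5.88 and 4.88 CPM in wild-type vehicle (log2 change -1.04, edgeR adjusted p = 0.00513). Mir132 changed by -1.10 (edgeR adjusted p = 0.0429). The groups did not overlap for any of these 3 genes, but they overlap each other on the genome, and how shared reads were divided is not stated, so they are not separate results. Mir212 and 1700016P03Rik were called throughout, while the call of Mir132 ended without knockout clozapine 3, 4 or 5, wild-type vehicle 1, 3 or 4, or wild-type clozapine 5 (edgeR adjusted p = 0.053 to 0.15). Rtn4rl1, a Nogo receptor homologue, was at 112, 111 and 105 CPM in knockout clozapine, against 128, 128 and 124 CPM in wild-type vehicle (log2 change -0.21, edgeR adjusted p = 0.0149, but 0.07 on leaving out knockout clozapine 5 or wild-type vehicle 3).

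Clock genes changed in both directions. Of 19 tested, Dbp, Bhlhe41 and Ciart rose and Npas2 and Arntl fell, with a median of 0.06. Over all tested genes 1.87% rose and 1.95% fell. In the mammalian clock, Arntl and its partners Clock or Npas2 activate the genes of their own repressors and of output factors such as Dbp. Npas2 (ENSMUSG00000026077.15, chromosome 1, 39193731 to 39363236) was at 36.7, 37.7 and 35.2 CPM in knockout clozapine and at 58.0, 55.0 and 54.4 CPM in wild-type vehicle (log2 change -0.61, SE 0.08, edgeR adjusted p = 0.000916). The clock output factor Dbp (ENSMUSG00000059824.10, at 45705088 to 45710203 of chromosome 7) was at 140.3, 119 and 137 CPM in knockout clozapine, against 107, 93.4 and 98.6 CPM in wild-type vehicle (log2 change 0.40, SE 0.07, edgeR adjusted p = 0.00492). Npas2 and Dbp were called throughout and did not overlap between the groups. Arntl, the core activator, changed by -0.36 (edgeR adjusted p = 0.00998, but 0.059 without knockout clozapine 3). The repressors Bhlhe41 and Ciart changed by 0.28 and 0.61 (edgeR adjusted p = 0.0271 and 0.0276). Their calls ended without knockout clozapine 3 or 5 or any single wild-type vehicle library (edgeR adjusted p = 0.051 to 0.11). The labels do not give the hour at which tissue was taken.

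Genes of cholesterol synthesis rose in knockout clozapine cortex. Of 25 tested, 7 rose and 0 fell, with a median log2 change of 0.22, and the list summed to 1542 to 1679 CPM in knockout clozapine, against 1414 to 1493 CPM in wild-type vehicle. The pathway is controlled by SREBP transcription factors, which respond to sterol levels and which Insig1 helps to hold in the ER. Insig1 (ENSMUSG00000045294.11, chromosome 5, 28071363 to 28078662) was at 88.6, 83.9 and 79.0 CPM in knockout clozapine and at 58.8, 62.5 and 60.8 CPM in wild-type vehicle (log2 change 0.47, SE 0.07, edgeR adjusted p = 0.00253). Mvd, an enzyme of the mevalonate pathway, was at 27.2, 26.2 and 25.2 CPM in knockout clozapine, against 18.4, 19.6 and 19.5 CPM in wild-type vehicle (log2 change 0.45, edgeR adjusted p = 0.00492). Insig1 and Mvd were called throughout, and their groups did not overlap. Among other enzymes of the pathway, Lss, Dhcr7 and Acat2 changed by 0.28, 0.27 and 0.29 (edgeR adjusted p = 0.0192, 0.0276 and 0.0465). These 3 calls ended without any single knockout clozapine library, wild-type vehicle 1 or wild-type vehicle 3 (edgeR adjusted p = 0.056 to 0.18), and that of Acat2 without knockout vehicle 2 or 4 or wild-type clozapine 3 (0.052 to 0.055). Without knockout clozapine 4 or wild-type vehicle 1, 4 members of the list were called, and without knockout clozapine 3 or wild-type vehicle 3, 3 were.

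Related lipid lists had calls in 1 direction, where 1.87% of all tested genes rose. From the fatty acid synthesis list 1 of 13 rose, the SREBP gene Srebf1 (0.25, edgeR adjusted p = 0.0302). From the apolipoprotein and cholesterol transport list 2 of 12 rose, the lipid carrier Apod (0.32, 0.0192) and the cholesterol exporter Abca1 (0.33, 0.0339). Calls of Srebf1, Apod and Abca1 ended without knockout clozapine 3 or 5, or wild-type vehicle 1 or 3 (edgeR adjusted p = 0.056 to 0.15), and that of Abca1 without wild-type vehicle 4 (0.088).

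Among receptor families that bind clozapine, 2 of 27 tested genes rose and 2 fell, with a median of 0.13, against 1.87% and 1.95% of all tested genes. In a fit with a replicate block, 0 of the 27 rose and 0 fell. Both directions occurred within the alpha-2 adrenergic receptors, which inhibit adenylyl cyclase. Adra2c was at 24.2, 23.4 and 23.2 CPM in knockout clozapine and at 32.2, 29.6 and 28.7 CPM in wild-type vehicle (log2 change -0.35, SE 0.06, edgeR adjusted p = 0.00789), and was called throughout. Adra2a was at 19.1, 20.5 and 21.02 CPM in knockout clozapine, against 11.8, 14.3 and 14.8 CPM in wild-type vehicle (log2 change 0.56, SE 0.12, edgeR adjusted p = 0.018). The histamine H1 receptor gene Hrh1 changed by -0.43 (edgeR adjusted p = 0.0189) and the serotonin 2C receptor gene Htr2c by 0.52 (edgeR adjusted p = 0.0339). Calls ended for Adra2a without any single knockout clozapine library or wild-type vehicle 1 or 3 (edgeR adjusted p = 0.052 to 0.074). Those of Hrh1 ended without knockout clozapine 4 or 5 or wild-type vehicle 3 (0.054 to 0.079), and those of Htr2c without knockout clozapine 3 or 5 or wild-type vehicle 1 or 3 (0.085 to 0.16). Htr2a, which encodes the serotonin 2A receptor, a main clozapine target in frontal cortex, was at 31.2, 31.2 and 29.9 CPM in knockout clozapine and at 17.7, 18.9 and 22.4 CPM in wild-type vehicle. Its groups did not overlap, but the test did not pass (log2 change 0.65, SE 0.21, edgeR adjusted p = 0.121).

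Glutamate receptor genes had 2 calls, both higher, where 1.87% of all tested genes were called higher. Grin2d, an NMDA receptor subunit, was at 47.0, 43.3 and 42.9 CPM in knockout clozapine and at 30.6, 33.5 and 33.9 CPM in wild-type vehicle (log2 change 0.44, SE 0.07, edgeR adjusted p = 0.00466), as 1 of 15 NMDA, AMPA and kainate subunits, and was called throughout. Grm2, a presynaptic metabotropic receptor that lowers glutamate release, was at 103, 91.9 and 101 CPM in knockout clozapine, against 68.6, 67.5 and 77.5 CPM in wild-type vehicle (log2 change 0.47, SE 0.09, edgeR adjusted p = 0.0168), as 1 of 7 metabotropic receptors. Without knockout clozapine 3 or 5, or wild-type vehicle 1 or 3, the call of Grm2 ended (edgeR adjusted p = 0.06 to 0.087). In the list of 24 postsynaptic scaffold genes 1 fell, Shank2 (-0.35, edgeR adjusted p = 0.0191). Homer1, described above, is not in that list. Among 21 regulators of spine actin 2 rose and 2 fell. Kalrn, a guanine nucleotide exchange factor known for enlarging spines, was at 865, 871 and 821 CPM in knockout clozapine and at 613, 703 and 726 CPM in wild-type vehicle (log2 change 0.32, edgeR adjusted p = 0.0102, but 0.053 without knockout clozapine 3). The kinase gene Pak7 changed by 0.30, and Baiap2 and Dbn1, whose products organise actin at synapses, by -0.30 and -0.23 (edgeR adjusted p = 0.0144 to 0.0192). Calls of these 3 ended without knockout clozapine 5 or wild-type vehicle 3 (0.07 to 0.085), those of Pak7 and Dbn1 without knockout clozapine 4 (0.056 to 0.059), those of Baiap2 and Dbn1 without knockout clozapine 3 (0.057 to 0.076), and that of Dbn1 without wild-type vehicle 4 (0.053). Shank2's ended without knockout clozapine 3 or 5, or wild-type vehicle 1 or 3 (0.057 to 0.099).

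The largest changes lay mostly in genes of low level. Lbhd2 (ENSMUSG00000087075.1, chromosome 12, 111406809 to 111412090) was at 2.92, 2.67 and 3.23 CPM in knockout clozapine and at 0.30, 0.42 and 0.36 CPM in wild-type vehicle. This was the largest log2 change of any called gene, 3.00 (SE 0.21, edgeR adjusted p = 9.87e-07). Ppm1j, a protein phosphatase gene, was at 3.42, 2.96 and 3.02 CPM in knockout clozapine, against 0.83, 0.88 and 0.75 CPM in wild-type vehicle (log2 change 1.92, SE 0.19, edgeR adjusted p = 5.48e-05). Nectin4, a cell adhesion gene, was at 13.5, 15.4 and 13.1 CPM in knockout clozapine, against 6.44, 6.34 and 6.82 CPM in wild-type vehicle (log2 change 1.10, SE 0.13, edgeR adjusted p = 0.000334). Within each of these genes the libraries of a group lay close together. The gap between the groups is part of the rule that named these genes, which required no overlap.

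Other named genes called throughout and higher were Gkn3 (1.26), Rassf7 (1.23) and Mctp2 (1.11), all of low level. Fmo2 (1.52), Ppl (1.24), Stag3 (1.23), Ccl28 (1.23), Slc22a3 (1.20), Trim72 (1.16), Capn12 (1.12) and Aldh3b2 (1.11) were also among the 15 largest, and each lost its call without wild-type vehicle 3 (edgeR adjusted p = 0.053 to 0.11). Without knockout clozapine 3 all of these 8 but Fmo2 lost it, without knockout clozapine 5 all but Stag3 and Aldh3b2, without wild-type vehicle 1 all but Stag3 and Slc22a3, without knockout clozapine 4 Ppl, Ccl28 and Capn12, and without wild-type vehicle 4 Ccl28, Slc22a3 and Capn12 (0.051 to 0.12). Stag3, a meiotic cohesin subunit gene, was at 2.43, 2.79 and 1.90 CPM in knockout clozapine and at 0.91, 1.08 and 1.03 CPM in wild-type vehicle.

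The gene that fell most among those named was Cbln4. Cbln4 (ENSMUSG00000067578.3, chromosome 2, 172036233 to 172043466), a secreted cerebellin that organises synapses, was at 14.3, 20.2 and 18.6 CPM in knockout clozapine and at 60.3, 52.9 and 38.3 CPM in wild-type vehicle (log2 change -1.51, SE 0.21, edgeR adjusted p = 0.00791). It was called throughout, but its call ended in a fit with a replicate block (edgeR adjusted p = 0.1). The transporter-like gene Mfsd2b (-1.18), the activin subunit gene Inhba (-0.94), the protease gene Adam8 (-0.98), Plekhg4 (-0.92), Emp1 (-0.91), the cell cycle inhibitor gene Cdkn1a (-0.86), the glycolysis regulator gene Pfkfb3 (-0.86) and Sgsm1 (-0.86) completed the 15 lower genes with those described above. Cdkn1a was also the call of the glucocorticoid-responsive list, 1 of 15. Each of these 8 lost its call without wild-type vehicle 3 (edgeR adjusted p = 0.059 to 0.13). Without knockout clozapine 3 all but Inhba lost it, without knockout clozapine 5 all but Mfsd2b and Plekhg4, without knockout clozapine 4 or wild-type vehicle 1 Inhba and Emp1, and without wild-type vehicle 4 Cdkn1a (0.051 to 0.13).

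Lists of genes that act on chromatin had calls near the 3.82% of all tested genes, or none. Of 13 histone deacetylase genes 0 were called, which so small a list can show at that share. Of 25 subunits of HDAC1/2 co-repressor complexes 1 rose (4.0%), the scaffold Sin3a. Sin3a was at 36.1, 38.2 and 33.7 CPM in knockout clozapine and at 29.1, 30.4 and 27.6 CPM in wild-type vehicle (log2 change 0.31, edgeR adjusted p = 0.0119), and its call ended without knockout clozapine 3 (0.053) or 4 (0.055). Of 24 histone methylation enzymes 1 fell, the H3K79 methyltransferase gene Dot1l (-0.59, edgeR adjusted p = 0.0494), whose call ended in 11 of the 12 tests without 1 library, all but that without knockout vehicle 2 (edgeR adjusted p = 0.059 to 0.16). Signalling lists had calls in both directions, where 1.87% of all tested genes rose and 1.95% fell. Among 24 Wnt regulators Ankrd6 fell (-0.54, edgeR adjusted p = 0.00239, called throughout) and Sfrp1 rose (0.45, 0.0172). Among 20 TGF-beta and activin genes the receptor Acvr1b rose (0.30, edgeR adjusted p = 0.0105) and Smad3 and Inhba fell (-0.34 and -0.94). Among 19 Eph receptors and ephrins, Efna3 and Epha8 rose (0.28 and 0.45) and Epha10 fell (-0.35). Of the genes in these 3 signalling lists, Sfrp1, Acvr1b, Efna3, Epha10, Smad3 and Inhba lost their calls without wild-type vehicle 3 (edgeR adjusted p = 0.059 to 0.13). Without knockout clozapine 3, the calls of Sfrp1, Acvr1b, Efna3, Epha8 and Smad3 ended, without knockout clozapine 5 those of Sfrp1, Epha8, Epha10, Smad3 and Inhba, and without knockout clozapine 4 those of Epha8, Smad3 and Inhba (edgeR adjusted p = 0.053 to 0.13). Without wild-type vehicle 1 the calls of Epha8, Epha10, Smad3 and Inhba ended, without wild-type vehicle 4 those of Sfrp1 and Epha8, and Epha8's also without knockout vehicle 2 or 5 or wild-type clozapine 3 (edgeR adjusted p = 0.05 to 0.14).

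Large housekeeping lists had 0 calls: 82 cytosolic ribosomal protein genes (median log2 change 0.05), 37 proteasome genes (-0.01), 81 nuclear respiratory chain genes (0.02) and 13 mitochondrially encoded protein genes (-0.07). The clustered protocadherins (53 genes), presynaptic release genes (20), GABA receptors and transporters (16), potassium channels (22), sodium and calcium channels (23), histone acetyltransferases (13) and the NF-kB list (14) had 0 calls as well. Over all 17286 genes, 3.82% were called, and 3233 (18.7%) had an unadjusted p under 0.05 by edgeR.

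Marker genes of cell types had 2 calls over 17 lists, Dlx2 of interneurons (0.54) and Cdhr1 of olfactory bulb neurons (0.86), each lost without 1 of several libraries (edgeR adjusted p = 0.051 to 0.21). These are any single knockout clozapine library, wild-type vehicle 1 or 3, knockout vehicle 2 and wild-type clozapine 3 or 5 for Dlx2, and knockout clozapine 3 or 5 and any single wild-type vehicle library for Cdhr1. Astrocyte, microglia and oligodendrocyte lists had medians of -0.02, 0.01 and -0.12. Meningeal fibroblast markers had a median of 0.48, and 6 of 8 were higher without overlap, against 12.5% of all genes, at a summed level of 157.1 to 217.6 CPM in knockout clozapine and 131.2 to 156.8 CPM in wild-type vehicle. Red blood cell markers had a median of 0.45 and summed to 122.4 to 303.2 CPM in knockout clozapine and to 138.3 to 180.4 CPM in wild-type vehicle. Choroid plexus markers had a median of -0.59 and summed to 5.38 to 9.06 CPM in knockout clozapine, against 5.31 to 61.7 CPM in wild-type vehicle, where wild-type vehicle 3 alone was high. The part of these cells in the changes above was not tested.

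**Figure D3:**
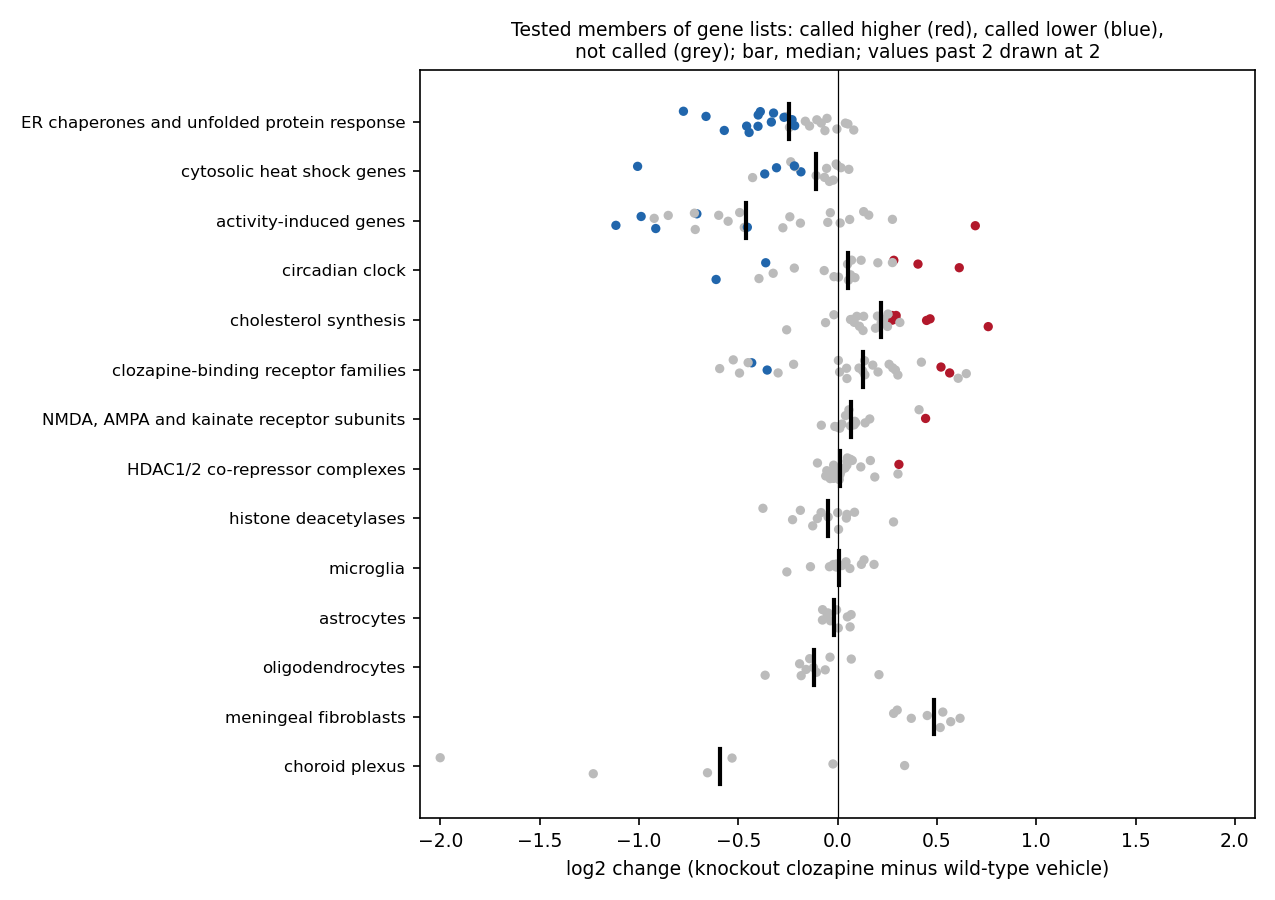
Each point is a tested member of a gene list, placed at its log2 change, knockout clozapine minus wild-type vehicle, on the x axis, with 1 row per list and a bar at the list's median. Red and blue points were called higher and lower: the ER list has 13 blue points of 25, cholesterol synthesis 7 red points of 25, and the histone deacetylases none of 13.

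How the combined difference compares with each factor alone was read from the same fit. These comparisons share libraries with the combined one, so their values are set side by side only. Of tested genes, 0.816% were called in wild-type clozapine (0.191% higher, 0.625% lower) and 9.16% in knockout vehicle (4.01% higher, 5.15% lower), each against wild-type vehicle. In knockout clozapine against wild-type clozapine 2.0% were called (1.48% higher, 0.515% lower), and in knockout clozapine against knockout vehicle 0.0231% (0.0116% in each direction), which are Amer2 and Tnrc18, higher, and the near-identical Rn7s1 and Rn7s2, lower. Hspa5 changed by -0.66 in knockout clozapine, by -0.51 in wild-type clozapine and by -0.74 in knockout vehicle, each relative to wild-type vehicle. Its levels were 226 to 244 CPM in knockout clozapine, 218 to 227 CPM in knockout vehicle, 253 to 265 CPM in wild-type clozapine and 345 to 394 CPM in wild-type vehicle. All 9 libraries with either factor or both lay below all 3 wild-type vehicle libraries. Bdnf changed by -0.71 with both, -0.56 with clozapine alone and -0.54 with the labelled genotype alone. For Scg2 the values were -0.50, -0.37 and -0.44, and for Insig1 0.47, 0.33 and 0.51.

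Other genes had unlike values for the 2 factors. Lbhd2 changed by 3.00 with both, 0.06 with clozapine alone and 3.31 with the labelled genotype alone, and Ppm1j by 1.92, -0.20 and 1.98. Both genes were high in all 6 libraries labelled knockout and low in all 6 labelled wild type. Cbln4 (-1.51, -0.47 and -1.56), Grin2d (0.44, -0.10 and 0.44) and Npas2 (-0.61, -0.29 and -0.61) had the same order of values, and clozapine alone was not called for any of these 5 genes (edgeR adjusted p = 0.124 to 0.976). Kalrn changed by 0.32 with both, by 0.25 with clozapine alone and by 0.04 with the labelled genotype alone, and neither single factor was called (edgeR adjusted p = 0.0753 and 0.755).

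The interaction test compares the combined change with the sum of the changes seen with each factor alone, or, equally, the drug's effect in the labelled knockout with that in wild type. It called 113 genes (0.654% of those tested), 91 higher (0.526%) and 22 lower (0.127%). Hspa5 had an interaction of 0.59 (SE 0.075, edgeR adjusted p = 0.0019): clozapine changed it by 0.08 in the labelled knockout and by -0.51 in wild type. Dbp had one of 0.81 (SE 0.097, edgeR adjusted p = 0.0019). The level of Dbp was 119 to 140.3 CPM in knockout clozapine and 112 to 120 CPM in knockout vehicle, which overlap. It was 61.5 to 69.5 CPM in wild-type clozapine, the lowest group, and 93.4 to 107 CPM in wild-type vehicle. Clozapine changed Dbp by 0.19 in the labelled knockout, which did not pass, and by -0.62 in wild type. Both interactions were called in all 12 tests without 1 library. The number of calls was unstable: 354 by DESeq2, 302 with no low-count filter, 32 after correcting for length and GC (15 higher and 17 lower), and 12 with a replicate block. Leaving out knockout clozapine 3, 4 or 5 gave 21, 24 and 13 calls, wild-type vehicle 1 or 3 gave 54 and 19, knockout vehicle 2, 4 or 5 gave 54, 181 and 40, and wild-type clozapine 5 gave 23.

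**Figure D4:**
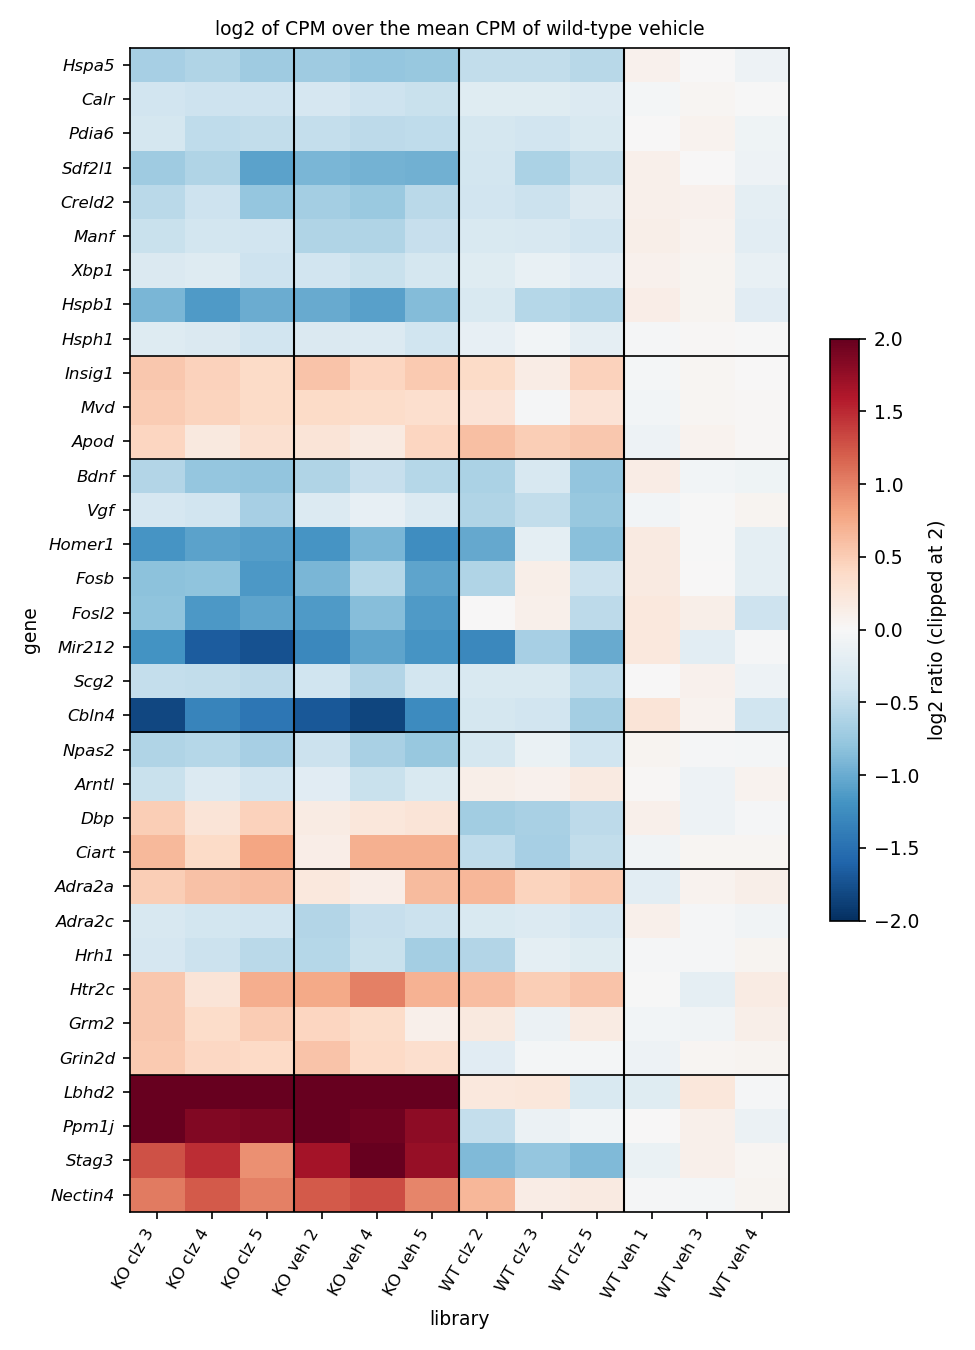
Each cell is the log2 ratio of a gene's CPM in 1 library to its mean CPM in wild-type vehicle, red higher and blue lower, clipped at 2, with the 4 groups from knockout clozapine at the left to wild-type vehicle at the right. The ER chaperone gene Hspa5 (top row) is blue in all 9 libraries outside wild-type vehicle, while Lbhd2 and Ppm1j (bottom block) are red in all 6 libraries labelled knockout and pale in the wild-type clozapine libraries.

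The 6 libraries that the combined comparison did not use allow the same genes to be looked at again. Knockout vehicle was compared with wild-type clozapine, which has the labelled genotypes in the same order but the drug in the other, and shares no library with the combined comparison, though both use 1 estimate of the spread. This comparison called 854 genes (4.94% of those tested), 479 higher and 375 lower. That number was 527 without knockout vehicle 2 (318 higher and 209 lower), 590 without wild-type clozapine 2 (344 higher and 246 lower) and 389 without wild-type clozapine 3 (242 higher and 147 lower). The balance of directions moved too, to 403 higher and 183 lower without knockout vehicle 5, and to 305 higher and 367 lower without knockout vehicle 4. Of the 323 genes higher in knockout clozapine, 266 (82.4%) had a positive log2 change there, against 48.9% of all tested genes, and 127 (39.3%) were called higher, against 2.77%. Of the 337 lower genes, 278 (82.5%) had a negative change, against 51.1%, and 52 (15.4%) were called lower, against 2.17%. Across the 660 called genes the log2 changes of the 2 comparisons had a Spearman correlation of 0.678, and across all tested genes one of 0.295, as a description over genes.

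Lbhd2 changed by 3.25 in knockout vehicle against wild-type clozapine, Ppm1j by 2.18 and Stag3 by 2.82 (edgeR adjusted p = 3.66e-07, 8.36e-06 and 1.15e-05). Dbp, Ciart, Grin2d and Nectin4 were called higher there too (0.84, 1.10, 0.53 and 0.82), and Arntl lower (-0.45), with edgeR adjusted p = 4.43e-06 to 0.00173, and these 8 calls held in all 12 tests without 1 library. Changes of like sign with each factor alone, as given above for Bdnf and Hspa5, cancel in part or whole in this comparison. It therefore cannot show whether such a combined change appears again. Bdnf and Sgsm1 had changes of 0.02 and -0.03 there (edgeR adjusted p = 0.945 and 0.950). Hspa5 was called lower there by a smaller change, -0.23 (edgeR adjusted p = 0.0187), a call that ended without knockout vehicle 4 or wild-type clozapine 2 or 3 (0.054 to 0.072). Of the called ER genes, 3 were called lower there, Hspa5, Sdf2l1 and Pdia4. The call of Sdf2l1 ended without any single knockout vehicle library or wild-type clozapine 2 or 5 (edgeR adjusted p = 0.063 to 0.1). That of Pdia4 (0.0492) ended in 9 of the 12 tests, all but those without knockout clozapine 4 or wild-type vehicle 1 or 4 (0.055 to 0.19), and at a mean of at least 1 CPM (0.053). Only 4 of the 660 genes were called in opposite directions. Pak7, Tmtc1 and Sh3bgrl2 were higher in knockout clozapine than in wild-type vehicle (0.30, 0.22 and 0.33) and lower in knockout vehicle than in wild-type clozapine (-0.38, -0.23 and -0.30), while Vgf changed by -0.45 and 0.38. Of these, Tmtc1 and Sh3bgrl2 were named after their values were seen. Their calls in the combined comparison ended without any single knockout clozapine library or wild-type vehicle 3, and that of Tmtc1 also without wild-type vehicle 1 or 4, knockout vehicle 2 or wild-type clozapine 5 (edgeR adjusted p = 0.053 to 0.16). In knockout vehicle against wild-type clozapine, their calls ended without knockout vehicle 2 or 5 or wild-type clozapine 2 or 5 (0.053 to 0.11) and with the length and GC correction (0.06 and 0.07), and that of Vgf without knockout vehicle 4 (0.05).

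**Figure D5:**
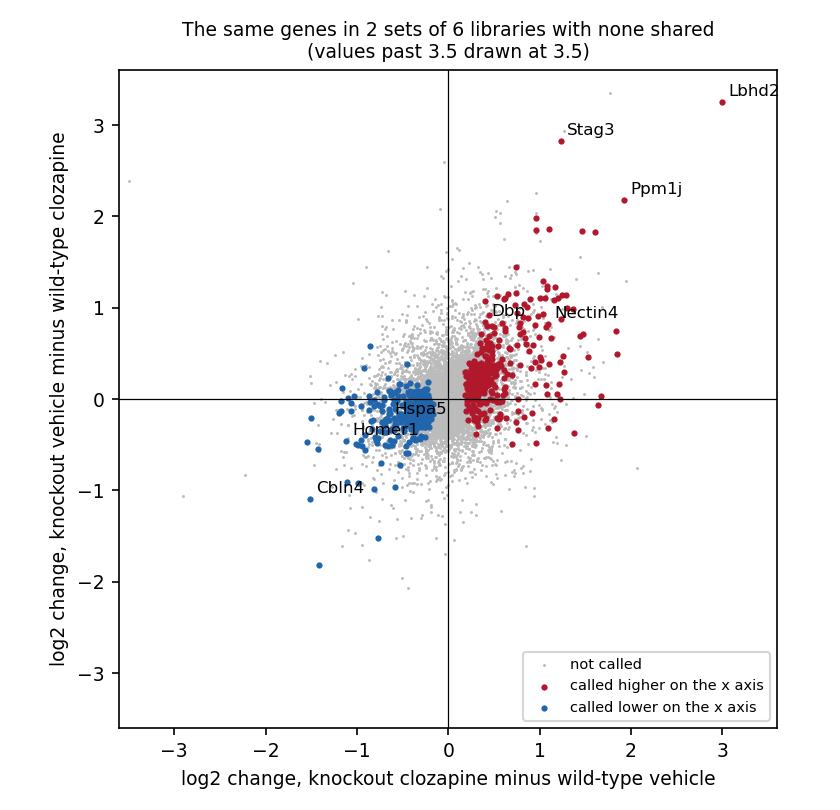
Each point is a tested gene, with its log2 change in knockout clozapine minus wild-type vehicle on the x axis and in knockout vehicle minus wild-type clozapine on the y axis, from 2 sets of 6 libraries with none shared. Of the 323 red genes, 266 lie above 0 on the y axis, and of the 337 blue genes, 278 lie below it, with Lbhd2, Stag3 and Ppm1j at the upper right.

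Over the autosomes and X, called genes made up from 2.64% of tested genes on chromosome 6 to 5.61% on chromosome 17, and none of the 31 tested mitochondrial and 13 tested Y-linked genes was called. Besides the stretch on chromosome 11, the runs with most called genes were 5 among 20 tested on chromosome 4 (137862237 to 139092993), Ece1, Sh2d5, Cda, Vwa5b1 and Nbl1, of which 3 were higher and 2 lower. Runs of 4 among 9 tested lay on chromosome 1 (127774164 to 128328318), Ccnt2, Map3k19, R3hdm1 and Lct, of which 1 was higher and 3 lower, and on chromosome 17 (56005711 to 56140343), Mpnd, Sh3gl1, Lrg1 and Sema6b, of which 3 were higher and 1 lower.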

How the data were processed

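Bilateral frontal cortex RNA was purified (RNeasy) and sequenced as Illumina mRNA libraries, per the labels' protocols. The submitters' processing notes name STAR 2.5.1b, featureCounts and GRCm38. Strand use and the sharing of reads between genes are not stated, so values of overlapping, antisense or near-identical genes are uncertain. For each gene and library the authors deposited an estimated count. Some are not whole, although whole counts had been assumed, and all were rounded for the tests. Totals were 23408372 to 28069638 per library. Of 47069 identifiers, 46574 matched GENCODE release M21 (GRCm38).

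Genes were kept by edgeR's filterByExpr (17286). All contrasts came from 1 fit of the 12 libraries in edgeR 4.0.16 (R 4.3.3): TMM scaling, robust quasi-likelihood test, BH adjustment over the tested genes, threshold 0.05. CPM are counts over TMM-scaled library sizes. The fit was tested on simulated data. Genes named are Hdac2, up to 15 higher and 15 lower genes of largest change among calls whose groups do not overlap and whose mean is 1 CPM or more, up to 4 called members of each list, 6 interaction genes and the longest runs. Other genes (Atf4, Arc, Egr1, Fos, Npas4, Htr2a, Pdia3, Pdia4, Dnajb11, Hyou1, Creld2, Manf, Xbp1, Hsp90b1, Syvn1, Jun, Hspa8, Ciart, Lss, Dhcr7, Acat2, Tmtc1 and Sh3bgrl2) were chosen after their values were seen. Some genes that the rule names are not reported here. Members and the 31 pathway and 17 cell marker lists were chosen with earlier results of these data known. Alternatives were DESeq2 1.42.0, RLE size factors, no low-count filter, a mean of at least 1 CPM, a replicate block, the 2 groups alone, a length and GC correction, unrounded values and leaving out each library.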

Additional observations from a re-analysis of the deposited data

Results flagged for a closer look

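The effect of clozapine differed between the labelled knockout and wild type, by a test of the difference itself, for 17 genes described here, among 41 genes called in both the combined comparison and the interaction. The differences, labelled knockout minus wild type on the log2 scale, were 0.81 for the clock output gene Dbp and 0.59 for the chaperone gene Hspa5 (edgeR adjusted p = 0.0019 for each). They were 0.45 for Rtn4rl1 (edgeR adjusted p = 0.0055), 0.46 for the AMPA receptor auxiliary subunit gene Cacng2, 0.61 for Asap2 (0.014 for each) and 0.38 for Dmtn, which encodes an actin-binding protein (0.015). In each of these 6 genes the change with clozapine was positive in the labelled knockout, from 0.08 for Hspa5 to 0.21 for Rtn4rl1, where none passed, and negative in wild type, from -0.62 for Dbp to -0.23 for Rtn4rl1. In the combined comparison Asap2 was at 53.4, 55.1 and 50.02 CPM in knockout clozapine, against 78.6, 78.4 and 73.9 CPM in wild-type vehicle. The interaction call of Cacng2 ended without knockout clozapine 5 (edgeR adjusted p = 0.055), and that of Dmtn without knockout clozapine 4 or 5 (0.054 to 0.055) and with the length and GC correction (0.091). The combined call of Dmtn (edgeR adjusted p = 0.0445) ended in 9 of the 12 tests without 1 library (0.053 to 0.19). That of Cacng2 (0.0102) ended without knockout clozapine 3 (0.064) or wild-type vehicle 3 (0.055).

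Another 8 genes had a positive difference with edgeR adjusted p = 0.023 to 0.048: Epha8 (0.90), Ankrd6 (0.66), Smad3 (0.60), Pdia4 (0.56), Shank2 (0.50), Manf (0.49), Adra2c (0.44) and Pdia6 (0.41). Ccl28, Htr2c and Apod had a negative one (-2.09, -0.86 and -0.52, edgeR adjusted p = 0.024 to 0.039). All 11 of these calls ended without knockout clozapine 5 and without wild-type vehicle 3 (edgeR adjusted p = 0.05 to 0.13), and all but that of Apod without knockout clozapine 3 (0.069 to 0.11). Each ended in 4 to 11 of the 12 tests without 1 library, while the calls of Dbp, Hspa5, Rtn4rl1 and Asap2 ended in none of them.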

How the results depend on the processing

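Under DESeq2, RLE size factors, no low-count filter, a mean of at least 1 CPM, the 2 groups alone, the length and GC correction and unrounded values, the combined comparison called 863, 664, 869, 660, 854, 853 and 662 genes, against 660. Leaving out 1 library gave 128 to 771 calls for the combined comparison, 389 to 927 for knockout vehicle against wild-type clozapine (854 as reported) and 13 to 181 for the interaction (113). The interaction called 354 genes by DESeq2, 302 with no low-count filter and 32 with the length and GC correction. Hdac2 reversed without wild-type vehicle 3 (-0.0197). Calls also ended with no low-count filter for Ciart (edgeR adjusted p = 0.054), Cdkn1a (0.062), Dmtn (0.079) and Dot1l (0.11). They ended with the length and GC correction for Mir132 (0.053), and in the 2 groups alone for Dlx2 (0.051), Cdhr1 (0.054) and Dot1l (0.089). The length and GC correction ended the interaction calls of Manf, Adra2c, Htr2c, Smad3, Epha8 and Shank2 (0.056 to 0.16), and RLE size factors that of Shank2 (0.051). The cause of these changes was not tested. The median change of all genes moved by at most 0.005 under any setting. Genes of low level rest on few counts, and 3 libraries a group limit the precision of every value.

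Replicate numbers showed no clear pairing of the libraries. Same-numbered libraries of different groups had correlations of -0.08 to 0.123, 1 of 10 pairs was over 0.1, and 3 of 11 libraries correlated best with their own number. The labels do not say what the numbers stand for, and so few pairs cannot show that no pairing exists. A replicate block gave 352 calls in the combined comparison, 36.6% of them higher against 48.9% without it, and 12 in the interaction. Of genes described as called throughout, the block ended the combined calls of Creld2 (edgeR adjusted p = 0.051), Adra2c (0.055) and Cbln4 (0.1). It also ended those of many less stable genes named above, among them Homer1 (0.076), Apod (0.087), Srebf1 (0.096), Dnaja1 (0.11), Htr2c (0.14), Dhcr7 (0.15) and Dlx2 (0.22). Of the 17 interaction calls named here, those of Dbp and Hspa5 held with the block and the other 15 ended (edgeR adjusted p = 0.065 to 0.34), among them Rtn4rl1 (0.083), Cacng2 (0.065), Asap2 (0.11) and Dmtn (0.1).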
